A study of Mus musculus with 94 samples.

Results

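MHC class II presentation was followed through 8 genes: H2-Aa, H2-Ab1 and H2-Eb1, Cd74, H2-DMa and H2-DMb1, Ciita, and Cd86. The members were chosen by name, and all 8 were among the 20411 gene rows in the counts of each depot. The tissues were the epididymal (eWAT) and the inguinal (iWAT) fat depot, both taken from each of 47 male C57BL/6JBomTac mice, giving 94 poly(A) RNA libraries. Mice were 10 weeks old when the diets were split. Obese mice (5) ate the high-fat diet D12492 for 18 weeks. Regression mice (6 in each group) ate it for 18 weeks and were then returned to the low-fat diet D12450J for 2, 6 or 12 weeks. Lean mice of the same age (6 in each group) ate D12450J throughout, with a group for each of the 4 times. The labels name this strain and no genetic change. Mice were caged in groups of up to 3 without a record here of the cage mates, so the p-values measure the spread between mice only.

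A class II molecule is a pair of chains, alpha and beta, that carries peptides from taken-up material to the surface of antigen-presenting cells and shows them to CD4+ T cells. Macrophages, dendritic cells and B cells are its main producers. Cd74, the invariant chain, escorts the new pair through the cell and fills its groove, the DM pair exchanges what Cd74 leaves behind for peptide, and Ciita, the class II transactivator, is recruited to the promoters by factors bound to their X and Y boxes. Cd86 is a costimulatory ligand that T cells read with the peptide. In C57BL/6 mice H2-Ea is a pseudogene, so the pair made of H2-Aa and H2-Ab1 is the class II molecule that reaches the surface.

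The promoters are shown because they carry the sequence that the regulator Ciita acts through. RefSeq windows of GRCm38.p6, running from 250 bases before to 50 bases after a start site, were found for 4 of the 8 members (H2-Aa, H2-Eb1, H2-DMa, H2-DMb1). Each window was searched for the X box letters (AAC, any 3 bases, then TGATG) or the cyclic AMP element TGACGTCA, followed on the strand of the gene and within 30 bases by the Y box letters ATTGG. The pair was found in 3 of these 4 members. Capitals below mark the 2 motifs, which do not overlap, and each stretch reads 5′ to 3′ along the gene.
H2-Aa, chr17:34287855-34287909, minus strand: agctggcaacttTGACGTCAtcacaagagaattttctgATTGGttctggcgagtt
H2-Eb1, chr17:34305766-34305824, plus strand: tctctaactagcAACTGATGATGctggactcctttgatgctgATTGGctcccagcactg
H2-DMb1, chr17:34153087-34153146, plus strand: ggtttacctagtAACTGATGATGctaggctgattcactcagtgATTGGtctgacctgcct
H2-DMb2, chr17:34145116-34145175, plus strand: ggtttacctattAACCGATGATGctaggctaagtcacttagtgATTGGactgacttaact
H2-Ob, chr17:34238808-34238864, plus strand: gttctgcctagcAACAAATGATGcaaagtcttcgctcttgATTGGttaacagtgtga

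H2-DMb2, a near-identical copy of H2-DMb1, and H2-Ob, the beta chain of the DM inhibitor in B cells, are no members and are shown for comparison. The first motif began 74 bases before the start site in H2-Aa, 89 in H2-Eb1, 92 in H2-DMb1, 85 in H2-Ob and 121 in H2-DMb2. From 17 to 20 bases lay between the motifs in all 5. Neither of the windows of H2-DMa held the pair. Searched on both strands, the X box letters occurred in 0.615% of the 32851 promoter windows, TGACGTCA in 1.79% and ATTGG in 37.4%, whereas the ordered pair occurred in 34 windows (0.103%), which belong to 32 genes. The letters were chosen with these promoters in view, and a match is a description, not a measured binding site.

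The level of a gene is its count scaled to library size (CPM), with TMM factors that put both depots on 1 scale. To compare genes with each other, mean CPM of the 24 lean mice was divided by the summed length of all annotated exons (GENCODE M21). In lean eWAT Cd74 was highest at 167 ± 30.2 CPM per kb (SD, n = 24). H2-Eb1 followed at 79.6 ± 17.5 and H2-Ab1 at 71.6 ± 16.5 CPM per kb, which lie within each other's spread, and H2-Aa at 34.5 ± 8.03. The DM genes were lower than these, at 8.17 ± 1.96 for H2-DMb1 and 4.49 ± 0.892 for H2-DMa. Cd86 (1.65 ± 0.502) and Ciita (1.53 ± 0.344 CPM per kb) were lowest and did not differ beyond their spread. Lean iWAT gave the same order down to H2-DMa, with Cd74 at 231 ± 132, and there Ciita (3.28 ± 3.40) and Cd86 (2.82 ± 2.07) again overlapped. This order depends on the exon length used, such as 3798 bases for H2-Aa, 1944 for H2-Eb1 and 9535 for Ciita. By mean CPM alone, lean eWAT had H2-Ab1 (184) above H2-Eb1 (155) and H2-Aa (131). H2-DMa (15.5), Ciita (14.5) and H2-DMb1 (13.7) then lay within each other's spread, above Cd86 (6.05). H2-Aa (chr17:34282744-34287823), H2-Ab1 (chr17:34257689-34269419), H2-Eb1 (chr17:34305867-34316674), H2-DMa (chr17:34119541-34139101) and H2-DMb1 (chr17:34153072-34160230) lie in the class II region of mm10, while Ciita (chr16:10480059-10528418) and Cd86 (chr16:36603869-36666081) share another chromosome. All 8 are protein-coding genes, and the values cover the whole gene. Reads of H2-DMb1 and H2-DMb2 may have been split between the copies, so their separate values are uncertain.

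Depth lay between 1.32 and 25.9 M counts in the eWAT libraries, with 2-week regression replicate 2 lowest, and between 6.27 and 34.3 M in the iWAT libraries. Summed adipocyte markers were at least 9780 CPM in every eWAT group and at least 8140 CPM in every iWAT group. The 5 skeletal muscle markers summed to at most 155 CPM in eWAT but ran from 6.57 to 33200 CPM over the iWAT libraries, within every group over a wide range, and their part in the iWAT values was not tested. In iWAT 7 libraries also stood apart by B cell markers (a mean of at least 4 log2 CPM): lean 2-week replicates 2 and 4, lean 6-week replicate 5, lean 12-week replicates 4 and 6, 2-week regression replicate 4 and 12-week regression replicate 2. The 9 B cell markers summed to 236 to 1500 CPM there and to 6.01 to 89.7 CPM in the other 40 libraries. T cell markers summed to a median of 122 CPM against 10.6 CPM. In eWAT 4 libraries held markers of the epididymal duct (obese replicate 5, lean 2-week replicate 2, lean 6-week replicate 5, lean 12-week replicate 1).

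In eWAT of obese mice, class II transcripts were higher than in lean mice of the same time. H2-Ab1, the beta chain of the surface molecule, was at 274, 335, 214, 675 and 211 CPM in the 5 obese mice, against 142 to 212 CPM (median 163) in lean mice. Obese replicate 4 stood far above the rest, and the lowest obese mouse lay just inside the lean range. H2-Ab1 was higher by 1.02 ± 0.30 on the log2 scale (± is the standard error of the fit; edgeR adjusted p = 0.0103), H2-Aa by 0.99 ± 0.29 and H2-Eb1 by 1.01 ± 0.30. Cd74 was higher by 0.87 ± 0.26. Ciita, the regulator, was at 21.9, 35.2, 23.5, 94.9 and 17.2 CPM in obese mice and at 9.57 to 16.6 CPM in lean mice, with no overlap. Its log2 fold change was 1.56 ± 0.35 (adjusted p = 0.00128), and that of H2-DMb1 was 1.59 ± 0.33 (adjusted p = 6.12e-04). H2-DMa (0.72 ± 0.26) and Cd86 (0.81 ± 0.26) had the smallest of these changes. All 8 members passed an adjusted p of 0.05, where 14.1% of the 14323 genes tested were called higher. The median log2 fold change was 1.00 over the members and -0.003 over all genes. In bulk tissue, more cells of a type and more RNA per cell cannot be told apart.

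Obese replicate 4 carried much of this result. Without it, 1 of the 8 members was called (H2-DMb1, 1.20 ± 0.33, adjusted p = 0.0134), and H2-Ab1 was 0.62 ± 0.29 (adjusted p = 0.159) and Ciita 0.90 ± 0.32 (adjusted p = 0.0555). H2-Eb1, Ciita and Cd86 were higher in every obese mouse than in every lean mouse, which held for 5.86% of the genes tested. The 12 macrophage markers summed to 5086 CPM in replicate 4 and to 1379 to 3211 CPM in the other obese mice, against 821 to 1110 CPM in lean mice. B cell markers there were at 151 CPM, the highest of the 5. The part of these cells in the result was not tested.

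**Figure D1:**
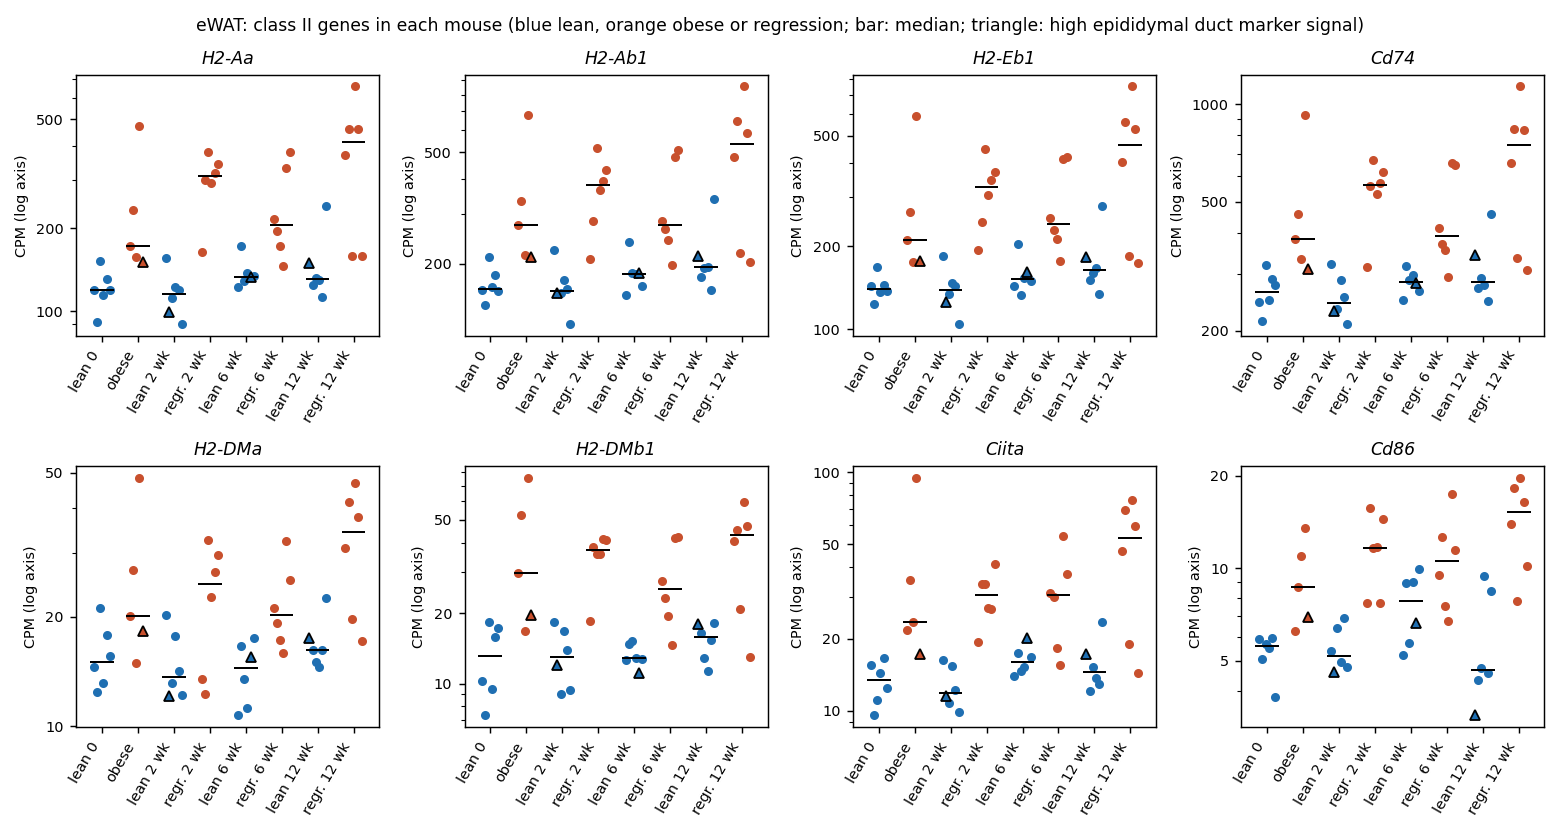
CPM (log axis) of the 8 class II genes in each eWAT library, by group; bars are medians and triangles mark libraries with a high epididymal duct marker signal. H2-Ab1 of the lean mice lay between 122 and 339 CPM, obese replicate 4 reached 675 CPM, and 4 of the 6 mice at 12 weeks lay between 481.7 and 857 CPM.

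After 2 weeks back on the low-fat diet, eWAT held class II transcripts above the lean level. H2-Aa was at 164, 310 and 380 CPM (lowest, median, highest of 6) in regression mice and at 89.7, 116 and 156 CPM in lean mice. The groups did not overlap, and the change was 1.37 ± 0.29 (adjusted p = 2.54e-04). H2-Ab1 was at 208, 381 and 519 CPM against 122, 160 and 223 CPM, overlapping in replicate 1 of the regression mice only (1.16 ± 0.29, adjusted p = 0.00158). Of the DM genes, H2-DMb1 was higher by 1.41 ± 0.32 and H2-DMa by 0.65 ± 0.25 (adjusted p = 0.0376), a gap that was not tested. Ciita was at 19.4, 30.5 and 41.4 CPM against 9.90, 11.9 and 16.3 CPM, again with no overlap (1.27 ± 0.34). Cd86, the costimulator, was at 7.70, 11.7 and 15.7 CPM against 4.60, 5.18 and 6.89 CPM (1.04 ± 0.25, adjusted p = 0.00129). All 8 members were called, where 18.6% of genes were called higher, and 5 of them (H2-Aa, H2-Eb1, H2-DMb1, Ciita, Cd86) did not overlap between groups, as was so for 7.02% of genes. Leaving out each library in turn left 7 or 8 members called. Macrophage markers summed to 1720, 3940 and 5070 CPM in these mice and to 879, 972 and 1250 CPM in lean mice. Of 6 adipocyte markers 3 were called lower at this time, with a median of -0.44 over the list, and their sum had a median of 12500 CPM against 18200 CPM in lean mice. The part of either in the result was not tested.

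At 6 weeks the differences in eWAT were smaller and 1 member was called. H2-Ab1 was at 199, 274 and 507 CPM in regression mice and at 155, 184 and 239 CPM in lean mice. Replicates 5 and 6 of the regression mice were at 480 and 507 CPM, and the other 4 lay between 199 and 283 CPM. Only replicate 4, at 199 CPM, lay within the lean range. H2-DMb1 passed the test at 1.08 ± 0.32 (adjusted p = 0.0319), where 5.56% of genes were called higher. The other 7 members had log2 fold changes from 0.52 (Cd86) to 0.91 (Ciita), with H2-Ab1 at 0.83 ± 0.28 (adjusted p = 0.0644). All 8 were positive with an unadjusted p under 0.05 by edgeR, and the median over the members was 0.81. None of the 8 separated the groups fully, as 2.26% of genes did. The count moved with the setting: 4 members were called by DESeq2 and 4 passed in the authors' deposited table, 6 were called in a fit on these 2 groups alone, and 0 without the 4 libraries with duct markers. Leaving out regression replicate 4 gave 6 called members and replicate 3 gave 4, while 0 were called without regression replicate 5 or 6 or without lean replicate 1, 4, 5 or 6.

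At 12 weeks all 8 members were called higher in eWAT, where 10.8% of genes were called higher. The change from 6 to 12 weeks was not tested. H2-Ab1 was at 481.7, 646, 219, 857, 585 and 203 CPM in the 6 regression mice, against 161, 194 and 339 CPM (lowest, median, highest) in lean mice. Replicates 1, 2, 4 and 5 lay above every lean mouse, and replicates 3 and 6 lay at the lean level. The same 2 mice were lowest for Ciita, at 19.0 and 14.4 CPM, while the other 4 had 46.9 to 76.4 CPM and lean mice 12.1 to 23.6 CPM. Ciita differed by 1.60 ± 0.34 (adjusted p = 0.00166), Cd86 by 1.32 ± 0.25 (adjusted p = 8.19e-04), H2-Aa by 1.36 ± 0.28 and H2-Ab1 by 1.23 ± 0.29 (adjusted p = 0.00347). H2-DMb1 was 1.31 ± 0.32, Cd74 1.13 ± 0.25 and H2-DMa 0.94 ± 0.25. The median over the members was 1.30, against -0.01 over all genes. No member separated the groups fully, as 1.05% of genes did. All 8 remained called when any 1 library was left out, 6 were called among replicates 1 to 3 alone and 0 among replicates 4 to 6 alone, where H2-Ab1 was 1.26 (adjusted p = 0.152).

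The split between mice at 12 weeks was shared with markers of other cells. Macrophage markers summed to 5019, 5787, 4872 and 3602 CPM in replicates 1, 2, 4 and 5 and to 1237 and 1492 CPM in replicates 3 and 6, against 720 to 1630 CPM in lean mice. B cell markers summed to 81.0, 161, 80.0 and 140 CPM in the former and to 7.65 and 16.7 CPM in the latter, against 6.51 to 47.5 CPM in lean mice. T cell markers summed to 31.7, 80.8, 48.9 and 63.8 CPM in replicates 1, 2, 4 and 5 and to 7.51 and 5.56 CPM in replicates 3 and 6, against 4.22 to 12.6 CPM in lean mice. The part of these cell types in the class II levels was not tested.

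**Figure D2:**
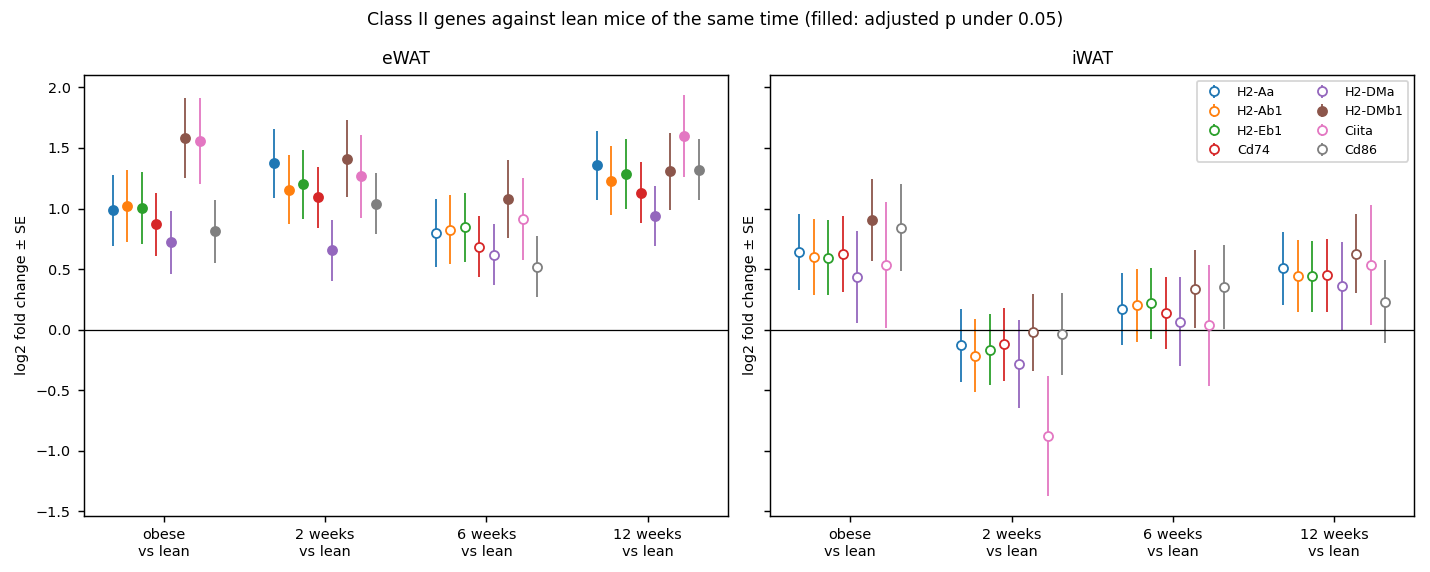
Log2 fold change (± SE) of the 8 class II genes against lean mice of the same time in eWAT and iWAT; filled points have an adjusted p under 0.05. In eWAT all 8 points are filled in obesity, at 2 and at 12 weeks, in iWAT H2-DMb1 alone is filled, in obesity, and at 2 weeks in iWAT all 8 lie below 0.

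The size of the response in eWAT did not pass a test of change over time. The differences at 2, 6 and 12 weeks were each set against the difference in obesity, and edgeR called 0 of the 8 members each time, as did DESeq2. The shares of genes called higher and lower were 2.09% and 3.74% at 2 weeks, 0.314% and 0.901% at 6 weeks, and 0.726% and 1.6% at 12 weeks. No member had an unadjusted p under 0.05 in these tests. For H2-Ab1 the change was 0.14 ± 0.41 at 2 weeks, -0.20 ± 0.41 at 6 weeks and 0.21 ± 0.41 at 12 weeks. For Ciita it was -0.29 ± 0.49, -0.64 ± 0.48 and 0.04 ± 0.49.  Set against each other, the oldest and the youngest lean groups gave 0 called members in eWAT (0.105% of genes called) and in iWAT (0.496%), by edgeR and by DESeq2, with no unadjusted p under 0.05.

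In iWAT of obese mice H2-DMb1 was the called member, at 0.90 ± 0.34 (adjusted p = 0.0371), where 14.7% of the 13899 genes tested were called higher. It was at 25.8, 27.4, 20.6, 45.9 and 18.5 CPM in obese mice and at 10.5 to 18.6 CPM in lean mice. H2-Ab1 was at 254, 230, 346, 321 and 253 CPM in obese mice and at 142 to 270 CPM in lean mice, and its change was 0.60 ± 0.31 (adjusted p = 0.148). Cd86 was higher in every obese mouse (11.5 to 19.2 CPM) than in every lean mouse (3.81 to 10.4 CPM), as was so for 7.37% of genes, and had 0.84 ± 0.36 (adjusted p = 0.0694). None of the 7 libraries with high B cell markers belongs to these 2 groups, yet they entered the common estimate of spread. Without them 6 of the 8 members were called, all but H2-DMa and Ciita, with nearly the same sizes: H2-Ab1 was 0.59 ± 0.19 (adjusted p = 0.0172), Cd74 0.62 ± 0.18 (adjusted p = 0.00675) and Cd86 0.84 ± 0.24 (adjusted p = 0.00759). A fit on the 2 groups alone and a fit with the B cell signal as a covariate also called 6. H2-DMb1 lost its call on leaving out obese replicate 1, 2 or 4 or lean replicate 2, 3, 4 or 5 in the fit with all other libraries.

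**Figure D3:**
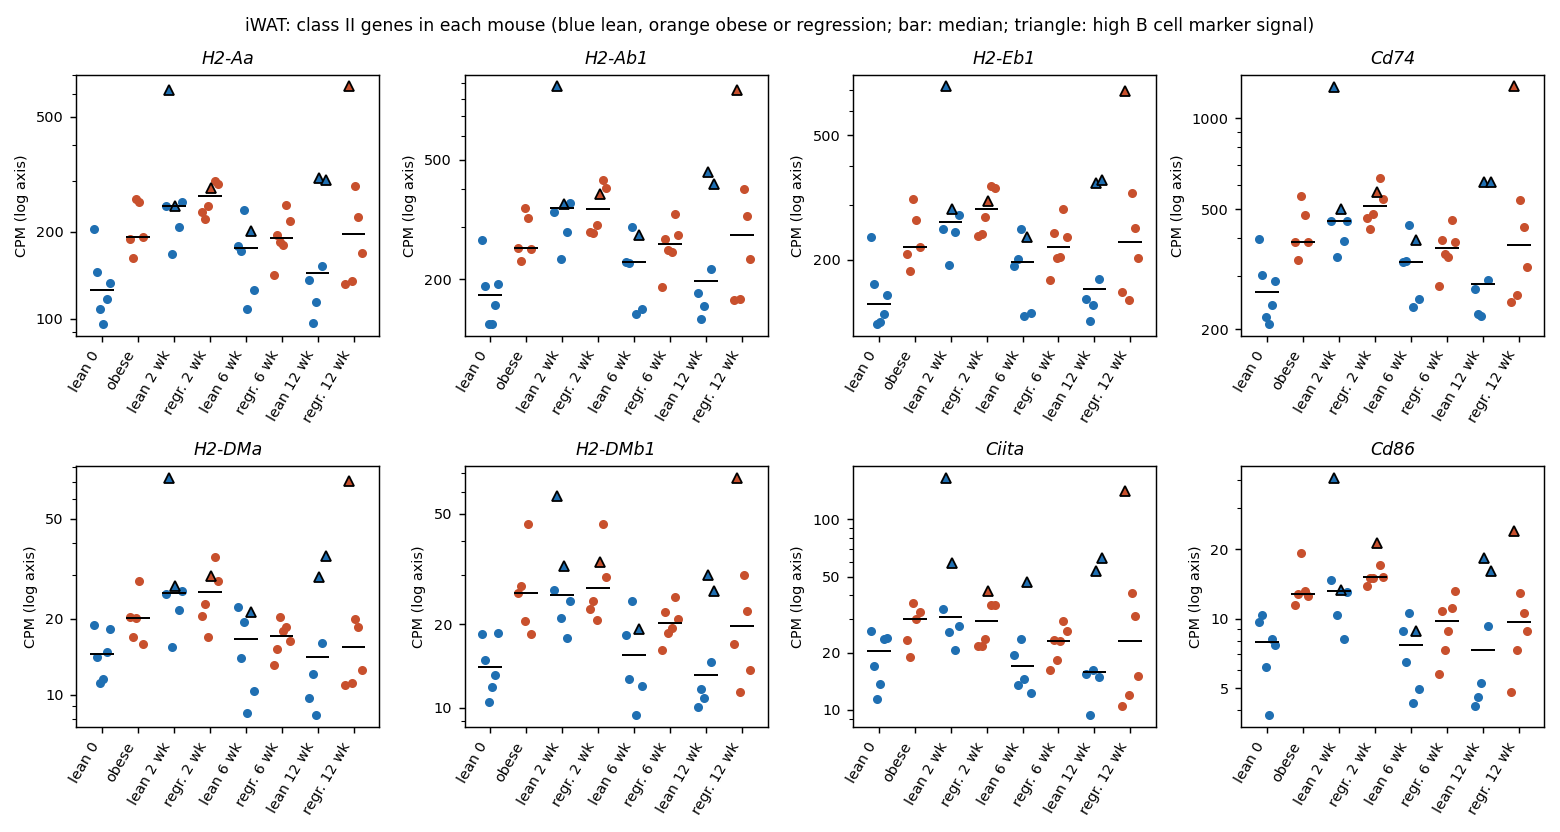
CPM (log axis) of the 8 class II genes in each iWAT library, by group; bars are medians and triangles mark the 7 libraries with a high B cell marker signal. Lean 2-week replicate 2 (879 CPM of H2-Ab1) and 12-week regression replicate 2 (852 CPM) stand above all other libraries.

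Among regression mice no member was called in iWAT at 2, 6 or 12 weeks by edgeR or DESeq2, and none had an unadjusted p under 0.05. None was higher in every regression mouse than in every lean mouse, as was so for 2.1%, 1.65% and 0.432% of genes. The shares of genes called higher and lower were 9.44% and 9.37% at 2 weeks, 0.554% and 0.482% at 6 weeks, and 0.0216% and 0.00719% at 12 weeks. At 2 weeks H2-Ab1 was at 285, 344 and 428.97 CPM (lowest, median, highest) in regression mice and at 233, 345 and 879 CPM in lean mice, so the medians were alike (-0.21 ± 0.30). Ciita had the most negative value, -0.88 ± 0.49 (adjusted p = 0.212). Without the 7 libraries these became 0.16 ± 0.22 for H2-Ab1 and 0.00345 ± 0.292 for Ciita, so neither direction held. The lean mice of this time were themselves high: their median H2-Ab1 of 345 CPM stood beside 177, 228 and 198 CPM in the lean mice of the obesity, 6-week and 12-week times. The 4 of them without high B cell markers were at 233 to 359 CPM, and their group's macrophage markers summed to a median of 2900 CPM, against 1830, 1210 and 1230 CPM. That difference between lean groups was not tested.

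H2-Ab1 in iWAT was at 189, 262 and 330 CPM at 6 weeks of regression, against 153, 228 and 299 CPM in lean mice (0.20 ± 0.30). At 12 weeks it was at 171, 280 and 852 CPM, against 147, 198 and 455.5 CPM (0.44 ± 0.30, adjusted p = 0.497). Ciita was 0.04 ± 0.50 at 6 weeks and 0.54 ± 0.50 at 12 weeks. The 12-week values overlapped throughout, and their highest libraries were those with high B cell markers. Set against the difference in obesity, 0 of 8 members changed at 2, 6 or 12 weeks in iWAT by edgeR or DESeq2. The shares of genes called higher and lower were 1.89% and 2.12%, 0.863% and 0.518%, and 2.35% and 2.5%. For H2-Ab1 these changes were -0.81 ± 0.44, -0.40 ± 0.44 and -0.16 ± 0.44, and no member had an unadjusted p under 0.05.

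The depots were compared within mice. In lean mice 7 of the 8 members were lower in eWAT than in iWAT, where 32% of the 14749 genes tested were called lower. Ciita had the largest difference (-0.80 ± 0.17, adjusted p = 1.10e-04), followed by Cd86 (-0.65 ± 0.13, adjusted p = 5.42e-05) and H2-Aa (-0.45 ± 0.12), while H2-DMa was not called (-0.25 ± 0.14, adjusted p = 0.118). H2-Ab1 was at 122, 177 and 339 CPM over the 24 lean eWAT libraries and at 142, 228 and 879 CPM over the lean iWAT libraries. Without both depots of the 7 mice with high B cell markers in iWAT, 2 members were still called lower, Ciita and Cd86. H2-Ab1 was then -0.24 (adjusted p = 0.0765) and Cd74 -0.15 (adjusted p = 0.240). With all mice, markers of other cells were lower in eWAT as well: 11 of 12 for macrophages (median -0.91), 9 of 9 for B cells (-1.99), 7 of 7 tested for T cells (-2.0), 7 of 8 for dendritic cells (-0.58) and 5 of 5 for skeletal muscle (-8.44). The remaining macrophage marker was called higher in eWAT (0.805). The members' median was -0.42, 12 of 12 class I genes were lower too, and the part of these cells was not tested.

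The response at 2 weeks differed between the depots for 6 of the 8 members, larger in eWAT each time, where 5.2% of genes were called in that direction. The difference was 1.74 ± 0.46 for Ciita (adjusted p = 0.0130), 1.33 ± 0.33 for H2-Aa (adjusted p = 0.00861), 1.34 ± 0.34 for H2-DMb1 and 1.20 ± 0.32 for H2-Ab1. H2-DMa (0.78 ± 0.37) and Cd86 (0.85 ± 0.34) were not called. Without the 7 mice 0 of the 8 were called: the values were 1.26 for Ciita (adjusted p = 0.0710), 1.04 for H2-Aa (adjusted p = 0.0747) and 0.93 for H2-Ab1 (adjusted p = 0.119). Leaving out replicate number 2 in every group, which includes the lean 2-week mouse at 879 CPM, also gave 0, and leaving out number 3 or 6 gave 3. With all mice the difference was also larger in eWAT for 6 of 7 T cell markers (median 4.21), 4 of 9 B cell markers (3.46), 4 of 12 macrophage markers (0.99) and 3 of 8 dendritic cell markers (0.80). It was lower for 4 of 6 adipocyte markers (-0.60), and the members' median was 1.19. The part of these cells in the result was not tested. In obesity, at 6 and at 12 weeks edgeR called no depot difference among the members, where 0.827%, 0.719% and 0.0678% of genes were called larger in eWAT. Unadjusted p-values under 0.05 were found for 0, 0 and 6 members at these times, and DESeq2 was not run on the depots. At 12 weeks H2-Ab1 differed by 0.72 ± 0.32 (adjusted p = 0.224) and Ciita by 1.15 ± 0.47 (adjusted p = 0.175).

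**Figure D4:**
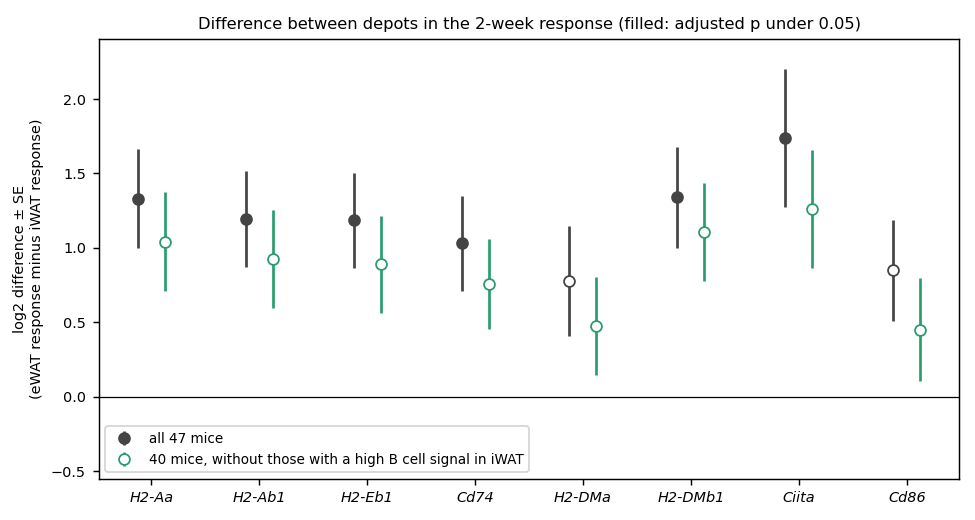
Log2 difference (± SE) between the eWAT and iWAT responses to 2 weeks of regression for the 8 class II genes, with all 47 mice and with the 40 mice left without those whose iWAT library had a high B cell marker signal. All 8 differences are positive in both fits, 6 are called with all mice (filled) and 0 with the 40 mice.

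Within groups the chains and the invariant chain varied together. After group means were subtracted, Pearson's r between log2 CPM of H2-Aa, H2-Ab1, H2-Eb1 and Cd74 ran from 0.974 to 0.992 in eWAT and from 0.988 to 0.992 in iWAT, over 47 libraries that share their scaling. Ciita correlated with H2-Ab1 at 0.900 in eWAT and 0.929 in iWAT. Cd86 followed less closely in eWAT (0.622 with H2-Ab1) than in iWAT (0.902), a difference that was not tested. All iWAT values here include the 7 libraries with high B cell markers, and their part in the correlations was not tested. Of the 11379 eWAT genes averaging 5 CPM or more, those most like the mean of these 4 genes in eWAT included Unc93b1 (r = 0.918), C1qb (0.910), Selplg (0.909) and C1qa (0.908). In iWAT, among 11126 genes, they were Ccdc88b (0.922), Sash3 (0.919), Rac2 (0.919), Lrmp (0.917) and Kmo (0.916). C1qa and C1qb are complement genes that macrophages make, and Rac2 is a GTPase of blood cells.

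Other genes of the class II pathway were called in eWAT as well. Of 11, 5 rose in obesity, 8 at 2 weeks, 4 at 6 weeks and 7 at 12 weeks, and none fell. The shares of all genes called higher were 14.1%, 18.6%, 5.56% and 10.8%. Their median log2 fold changes were 1.41, 2.17, 1.18 and 1.63. Ctss, the cathepsin that trims the invariant chain, rose by 2.94 ± 0.57 in obesity, 3.77 ± 0.57 at 2 weeks, 2.98 ± 0.56 at 6 weeks and 3.42 ± 0.57 at 12 weeks, more than any of the 8 members. Cd83, which keeps class II at the surface of mature cells, rose at all 4 times as well (2.81 ± 0.48 at 2 weeks). Cd40, the receptor through which T cells stimulate these cells, was called in obesity (1.82 ± 0.41) but not at 2 weeks (0.65 ± 0.39, adjusted p = 0.201). H2-Ob was called at 12 weeks, at 1.69 ± 0.47, and H2-Eb2, a beta chain gene next to H2-Eb1, at 3.39 ± 0.90. In iWAT 2 of the 11 were called in obesity (Ctss 1.31 ± 0.50 and Ctsl 0.50 ± 0.17), 2 at 2 weeks (Lgmn 1.18 ± 0.36 and Ctsl 0.61 ± 0.16) and 0 later by edgeR, with no unadjusted p under 0.05. Over all iWAT genes 14.7% were called higher in obesity and 9.44% at 2 weeks, so the count in obesity was near that share.

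The promoter-bound factors had medians near 0 (-0.05, -0.06, 0.12 and 0.10 in eWAT). Of 7 (the RFX and NF-Y subunits and Creb1), 1 rose in eWAT in obesity, 2 at 2 weeks, 1 at 6 weeks and 2 at 12 weeks. Over all genes 14.1%, 18.6%, 5.56% and 10.8% were called higher, so the count in obesity was near that share. Nfya, a subunit of the Y box factor, was the one called at all 4 times, with 0.55 ± 0.19, 1.09 ± 0.18, 0.62 ± 0.18 and 0.73 ± 0.18. Rfx5, of the X box factor, was not called (-0.05 ± 0.15 in obesity and 0.32 ± 0.14 at 12 weeks, adjusted p = 0.117). In iWAT edgeR called 0 of the 7 at each time, with 0, 4, 0 and 1 at an unadjusted p under 0.05.

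Interferon gamma is the classical inducer of Ciita. Of 8 listed genes of its axis, 7 passed the filter on low counts. Of these 7, 1 was called higher in eWAT in obesity (Jak1, 0.24 ± 0.09), 5 at 2 weeks, 1 at 6 weeks (Irf1, 0.56 ± 0.15) and 4 at 12 weeks. Over all genes 14.1%, 18.6%, 5.56% and 10.8% were called higher, so the count in obesity was near that share. Ifngr2, a receptor chain, had the largest change at 2 weeks (0.77 ± 0.15) and 12 weeks (0.57 ± 0.15). The median of the axis in eWAT was 0.24, 0.34, 0.22 and 0.29 over the 4 times. In iWAT 2 of 7 tested genes were called higher in obesity and 1 at 2 weeks, where 14.7% and 9.44% of genes were. At 6 and 12 weeks edgeR called 0 there, with 1 and 0 at an unadjusted p under 0.05.

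The class I genes, which present peptides from inside the cell, had smaller medians than the class II members in eWAT. Of 12, 0 were called in obesity by edgeR (2 had an unadjusted p under 0.05), 5 rose at 2 weeks, 3 at 6 weeks and 11 at 12 weeks, with medians of 0.15, 0.26, 0.35 and 0.46. The shares of all genes called higher were 14.1%, 18.6%, 5.56% and 10.8%. At 12 weeks the largest were H2-T23 (0.98 ± 0.20), Psmb8 (0.83 ± 0.20) and Tap1 (0.75 ± 0.22). The difference between the lists was not tested.

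**Figure D5:**
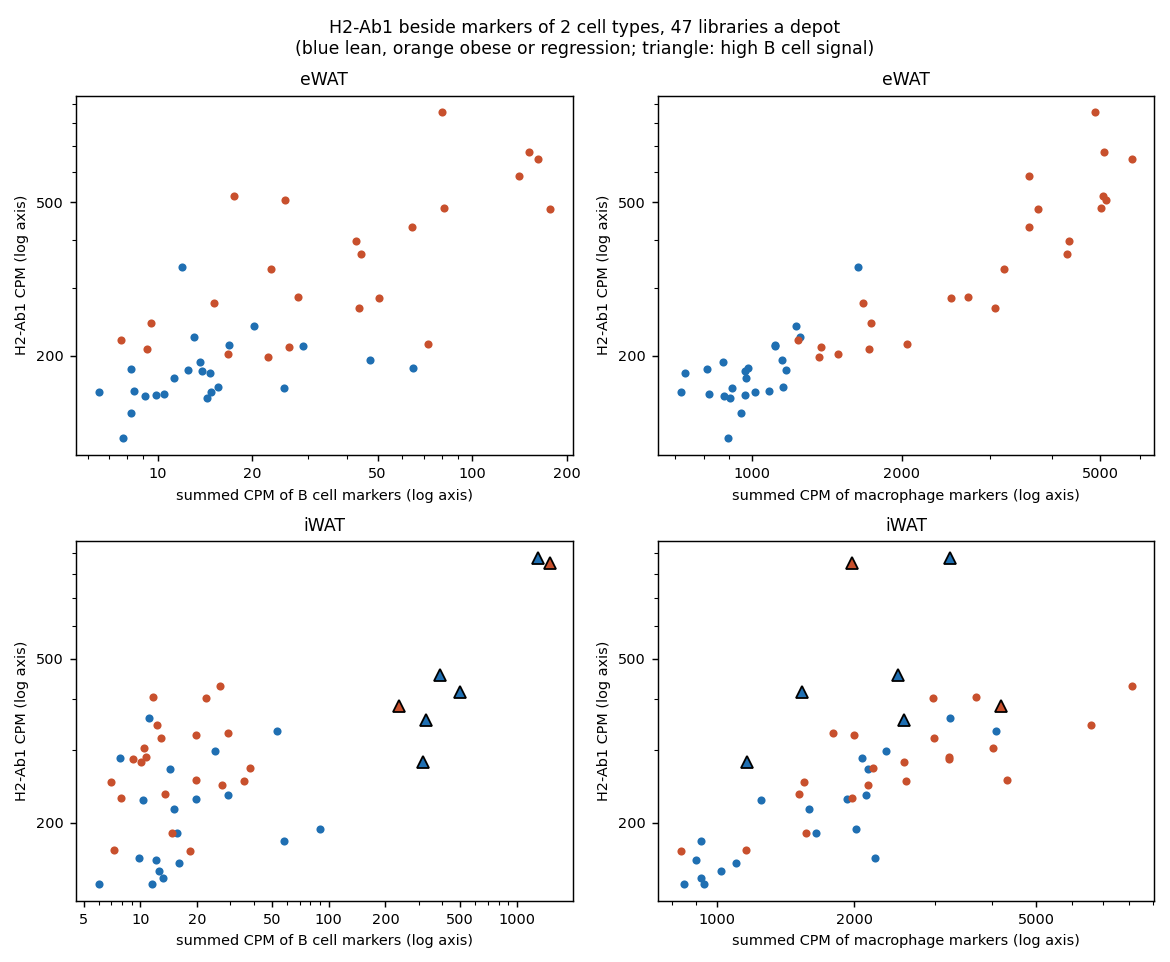
H2-Ab1 CPM against the summed CPM of 9 B cell markers (left) and 12 macrophage markers (right) in each of the 47 libraries of eWAT (top) and iWAT (bottom); all axes are logarithmic and triangles are the 7 iWAT libraries with a high B cell signal. In eWAT the mice with over 500 CPM of H2-Ab1 all have macrophage sums of at least 3602 CPM, and in iWAT both libraries over 800 CPM have the highest B cell sums, 1290 and 1497 CPM.

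Markers of macrophages, dendritic cells and B cells, the main producers of class II, were set beside it, as were those of T cells. In eWAT, macrophage markers were called higher for 10 of 12 in obesity, 11 at 2 weeks, 10 at 6 weeks and 10 at 12 weeks, with medians of 1.54, 1.84, 1.53 and 1.79, each larger than the median of the 8 members at that time. Of 9 B cell markers, 1, 1, 0 and 4 were called higher at these times, and of 8 dendritic cell markers 5, 3, 0 and 3, with 2 lower at 2 weeks. Over all genes tested in eWAT, 14.1%, 18.6%, 5.56% and 10.8% were called higher. The B cell count stood above that share at 12 weeks only. Of 7 tested T cell markers 3, 3, 0 and 7 were called higher, with medians of 1.83, 1.60, 0.79 and 2.26. At 6 weeks, where edgeR called 0 on the B, dendritic and T cell lists, 1, 4 and 2 of their markers had an unadjusted p under 0.05. In iWAT 11 of 12 macrophage markers rose in obesity, 2 at 2 weeks and 0 at 6 and 12 weeks by edgeR, where 3 and 1 had an unadjusted p under 0.05. The shares of all genes called higher there were 14.7%, 9.44%, 0.554% and 0.0216%. At 2 weeks in iWAT 4 of 7 T cell markers (median -2.73) and 2 of 8 dendritic cell markers (-0.73) were called lower, and 0 higher. B cell markers had a median of -2.48 with 0 of 9 called, and 9.37% of all genes were called lower. Lean 2-week replicates 2 and 4 are among the libraries with high B cell markers. In obesity the iWAT medians were -0.67 for B, -0.18 for T and 0.18 for dendritic cell markers. No marker of the macrophage, dendritic and B cell lists was at 0 in every library of a group. The 7 iWAT libraries with high B cell markers held 281 to 879 CPM of H2-Ab1 (median 414.1) against 142 to 428.97 CPM (median 249) in the other 40. H2-Ob was at 34.7 to 195 CPM against 1.27 to 12.3 CPM and Ciita at 42.2 to 166 CPM against 9.38 to 40.9 CPM, so that H2-Ob and Ciita separated these libraries fully and H2-Ab1 did not.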

How the data were processed

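The authors deposited raw counts per gene symbol for 47 libraries of each depot, and a table per depot with log2 fold changes and p-values adjusted by DESeq2. Per the submitters' processing notes STAR 2.4.1c, mm10, R 4.2.2 and DESeq2 1.38.3 were used. How reads were assigned to genes, and with which annotation and strand setting, is not stated there, so overlapping and near-identical genes are uncertain. The deposited results were used only for the authors' counts of members.

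Counts were fitted per depot over all 47 libraries with edgeR 4.0.16 in R 4.3.3 (TMM, default filter on low counts, quasi-likelihood F-test, two-sided). Calls required p under 0.05 after Benjamini-Hochberg adjustment over all genes tested. All differences between depots came from a fit over 94 libraries with mouse as a block, in which the dispersion was estimated globally because the gene-wise estimate took too long. Log2 CPM used a prior count of 2. Replicates were compared by chi-square tests of their counts, and chi-square per degree of freedom was at least 3.63 for eWAT pairs and 7.11 for iWAT pairs, so each library counted as 1 replicate. The fit per depot was tested on simulated data for the comparison in obesity only, and the fit over 94 libraries was not. Alternatives were DESeq2 1.42.0, its size factors, no filter, a block for the replicate number, the series of mouse numbers, the compared groups alone, marker signals as covariates and each library left out. Figures and tables were made in Python 3.11.15.

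The members and lists were chosen with earlier results of these data known. All 8 members are described in every comparison. Some genes that these rules would name are not reported here. From each other list counts are given and at most 3 called genes are named per comparison. Genes that are named without being called, the libraries with high marker signals, the split by replicates and the motif letters were chosen after values were seen.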

Additional observations from a re-analysis of the deposited data

Results flagged for a closer look

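In 29 of 128 combinations of gene and group, the highest or lowest library lay farther from the rest than Dixon's limit at 95%. The limit flags about 1 in 20 where values are normally distributed and combinations are independent. Here CPM were not put on a log scale and the members varied together within groups, so the 29 cannot be set against that rate. In obese eWAT replicate 4 was highest for H2-Aa (472.2 CPM, next 234), H2-Ab1 (675, next 335), H2-Eb1 (588, next 266), Cd74 (924, next 456.6) and Ciita (94.9, next 35.2). In lean 12-week eWAT replicate 6 was highest for H2-Aa (242 CPM), H2-Ab1 (339), H2-Eb1 (278) and H2-DMa (22.5), and in lean 6-week eWAT replicate 2 for H2-Aa (172) and H2-Ab1 (239). In 2-week regression eWAT replicate 1 was lowest for H2-DMb1 (18.6 CPM, next 35.7).

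In lean 2-week iWAT replicate 2 was highest for all 8 members: H2-Aa 618, H2-Ab1 879, H2-Eb1 718, Cd74 1266, H2-DMa 72.8, H2-DMb1 57.9, Ciita 166 and Cd86 40.8 CPM. In 12-week regression iWAT replicate 2 was highest for 7 members: H2-Aa 637, H2-Ab1 852, H2-Eb1 694, Cd74 1274, H2-DMa 70.5, H2-DMb1 67.4 and Ciita 142 CPM. B cell markers summed to 1290 and 1497 CPM in these 2 libraries, and their part in the levels was not tested. Lean 6-week iWAT replicate 5 was highest for Ciita (47.2 CPM, next 23.5), with B cell markers at 317 CPM. Obese iWAT replicate 3 was highest for Cd86 (19.2 CPM, next 13.1).

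The response at 2 weeks differed between depots by the test of the difference itself for H2-Aa (1.33 on the log2 scale, eWAT minus iWAT), H2-Ab1 (1.20), H2-Eb1 (1.19), Cd74 (1.03), H2-DMb1 (1.34) and Ciita (1.74). None of these 6 remained called without the mice whose iWAT library had high B cell markers.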

How the results depend on the processing

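Counts of called members kept within 1.5 times of the reported value except as follows, and the cause was not tested in any of them. In eWAT obesity (8 reported), replicates 1 to 3 alone gave 1, replicates 4 to 6 alone gave 2 and leaving out 1 library gave 1 to 8. Replicates 1 to 3 and 4 to 6 carry separate runs of mouse numbers. Such fits hold fewer mice, and in the obese group the latter are replicates 4 and 5 only. H2-Aa in obesity was 0.64 ± 0.32 in replicates 1 to 3 and 1.39 ± 0.50 in replicates 4 to 6. At 2 weeks in eWAT (8), replicates 1 to 3 alone gave 5 and left-out libraries 7 to 8. At 6 weeks in eWAT (1), DESeq2 gave 4, the compared groups alone 6, and the duct signal as a covariate, the duct libraries left out, replicates 1 to 3 and replicates 4 to 6 each gave 0, with 0 to 6 on leaving out 1 library. At 12 weeks in eWAT (8), replicates 4 to 6 alone gave 0. In iWAT obesity (1), the B cell covariate, the compared groups alone and the high B cell libraries left out each gave 6, replicates 1 to 3 alone gave 0, and left-out libraries gave 0 to 1. Without the mice with high B cell markers the lean depot difference (7) gave 2 and the depot difference at 2 weeks (6) gave 0, and leaving out a replicate number gave 0 to 7 for the latter and 0 to 2 for that at 12 weeks (0).

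Direction changed for values that were not called. Without the mice with high B cell markers H2-DMa in the lean depot difference was 0.0101, and with a replicate number left out it was -0.31 to -0.19. In iWAT at 2 weeks H2-Ab1 was 0.20 with the B cell covariate, 0.16 without the high B cell libraries, 0.29 in replicates 4 to 6 and -0.34 to 0.15 on leaving out 1 library, and Ciita was 0.0949, 0.00345 and 0.0807 in those first 3 settings. At 6 weeks in iWAT H2-Ab1 was -0.0666 in replicates 1 to 3, and Ciita was -0.0191 with the replicate block and -0.0781 to 0.43 with 1 library left out. At 12 weeks in iWAT H2-Ab1 was -0.17 and Ciita -0.60 in replicates 4 to 6, and with 1 library left out they were -0.0155 to 0.66 and -0.41 to 0.93.

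The replicate numbers did not pair the mice: correlations between libraries of 1 number ran from -0.60 to 0.56 in eWAT and from -0.58 to 0.63 in iWAT. With the replicate block 7 members were called in eWAT in obesity and 7 at 2 weeks, H2-DMa being lost each time (adjusted p = 0.0571 and 0.0509). The depot fit without mouse as a block, which ignores that both depots came from the same mouse, gave 4 called members at 2 weeks. DESeq2 was not run on the depot differences. The 1.32 M library limits the low genes at 2 weeks in eWAT, where H2-DMb2 had 0 counts in it.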

Other observations

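H2-Ab1 was set against the macrophage markers of the same library, after the data were seen. In eWAT H2-Ab1 amounted to a median of 18.4%, 17.1%, 18.0% and 21.4% of the summed macrophage marker CPM in lean mice of the 4 times, and to 13.3% in obese mice and 10.3%, 12.0% and 14.9% at 2, 6 and 12 weeks of regression. At 2 weeks the shares were 8.57% to 12.1% in regression mice and 13.6% to 18.0% in lean mice. The lower shares restate the larger changes of the macrophage markers given above and are a description. Exact permutation tests over mice gave adjusted p = 0.0381 in obesity and 0.0173 at 2, 6 and 12 weeks. Without the libraries with duct markers the value in obesity was 0.0571. The tests were chosen after the data were seen and are no separate support.

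In iWAT the median share was 9.76% in obese and 12.0% in lean mice, 8.90% and 12.4% at 2 weeks, 12.2% and 14.7% at 6 weeks, and 15.9% and 18.2% at 12 weeks. The same permutation tests gave adjusted p = 0.0381 at 2 weeks and at least 0.162 at the other times. Without the libraries with high B cell markers the median share was 8.84% and 11% at 2 weeks (permutation adjusted p = 0.169).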
